A study of Mus musculus with 2 samples.

Results

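The 9 genes followed here encode the enzymes of serine synthesis and of the folate-bound one-carbon cycle, and they were compared between 1 library of Trmt6 WT and 1 library of Trmt6 cKO haematopoietic stem and progenitor cells. The members are Phgdh, Psat1 and Psph (serine synthesis), Shmt2, Mthfd2, Mthfd1l and Aldh1l2 (mitochondrial folate enzymes), and Shmt1 and Mthfd1 (cytosolic folate enzymes). They were taken by symbol, and all 9 were found among the 27998 genes of both count matrices. The rule that names them uses no measured value, but the set was chosen with earlier results of these data known.

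The cells were LSK cells, that is, marrow cells without lineage markers that carry Sca-1 and c-Kit, and came from mice aged 3 months. Trmt6 codes for part of the complex that writes m1A on tRNA. The labels give the WT genotype as Trmt6fl/fl and the cKO genotype as Trmt6fl/fl, MX1-cre, whereas the study's scheme of the experiment gives Trmt6+/+ controls that carry Mx1-Cre, with pIpC injections, and its methods name Trmt6fl/+ mice with Mx1-Cre. Mx1-Cre is switched on by interferon, so that recombination is not limited to blood cells. How many mice went into a library is not given in the sources used here, and with 1 library per genotype, genotype and library cannot be told apart. All intervals below are 95% intervals that cover counting error only, and no p-value can be given.

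Serine is made from the glycolytic intermediate 3-phosphoglycerate by PHGDH, PSAT1 and PSPH in turn. The serine hydroxymethyltransferases SHMT2 (mitochondria) and SHMT1 (cytosol) then split serine into glycine and a single carbon that is handed to tetrahydrofolate. In mitochondria MTHFD2 oxidises this carbon, MTHFD1L releases it as formate, and ALDH1L2 can burn it to CO2 while making NADPH. MTHFD1 carries out the matching steps in the cytosol, where the carbon is used for purines, thymidylate and methionine, products that dividing marrow progenitors need.

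Promoter sequence (RefSeq, GRCm38.p6, 250 bases before to 50 after the transcription start) was found for 8 of the 9 members. These windows were read because several members differed together between the libraries. The letters CCAAT, on either strand, were in a window of 6 of the 8 members (Phgdh, Psat1, Psph, Mthfd2, Shmt1 and Mthfd1), against 37.4% of 32851 promoters. A member counts here if any of its promoters holds the letters, whereas the shares are of single promoters, so that the units differ. Psat1 has 2 promoters, and only the first holds CCAAT. The 6 comprised members with a large and with a small difference between the libraries. The letters TGATGNAA, the core that ATF4 and CEBP proteins are known to bind, were in 0 of the 8 (3.97% of all promoters) and the E-box CACGTG in 0 of the 8 (7.15%), which says nothing on binding outside these windows. TGATG alone was in 3 of the 8 (39.3%) and GGGCGG in 5 of the 8 (35.7%), for Psat1 in its second promoter only. The 250 bases before the start are shown for Mthfd2, Psat1 and Phgdh, whose transcripts were higher in cKO, and for Mthfd1, which differed least, 5′ to 3′ on the strand of the gene and with CCAAT or its reverse complement in capitals:
Mthfd2, chr6:83317605-83317854, minus strand: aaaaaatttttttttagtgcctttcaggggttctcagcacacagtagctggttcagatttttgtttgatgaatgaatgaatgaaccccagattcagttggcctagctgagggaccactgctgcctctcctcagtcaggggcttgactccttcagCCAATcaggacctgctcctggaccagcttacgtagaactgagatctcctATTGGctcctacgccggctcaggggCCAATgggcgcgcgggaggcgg
Psat1, chr19:15925060-15925309, minus strand: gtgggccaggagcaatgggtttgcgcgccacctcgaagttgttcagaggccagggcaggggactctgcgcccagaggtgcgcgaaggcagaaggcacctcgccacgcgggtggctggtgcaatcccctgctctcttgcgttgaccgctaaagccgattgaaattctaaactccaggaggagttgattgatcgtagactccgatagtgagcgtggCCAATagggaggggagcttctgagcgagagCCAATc
Phgdh, chr3:98339970-98340219, minus strand: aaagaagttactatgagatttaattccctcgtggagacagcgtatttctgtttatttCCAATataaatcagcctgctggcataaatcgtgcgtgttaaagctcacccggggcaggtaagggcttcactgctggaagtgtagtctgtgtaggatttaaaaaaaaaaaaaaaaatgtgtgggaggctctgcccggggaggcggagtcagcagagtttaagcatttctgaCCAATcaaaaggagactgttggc
Mthfd1, chr12:76254982-76255231, plus strand: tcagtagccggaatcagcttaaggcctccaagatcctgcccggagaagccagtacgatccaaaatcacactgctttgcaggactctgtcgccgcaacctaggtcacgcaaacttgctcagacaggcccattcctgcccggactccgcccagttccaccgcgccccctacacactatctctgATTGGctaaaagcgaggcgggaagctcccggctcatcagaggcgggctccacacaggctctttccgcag

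Mthfd2 held CCAAT at -96, -47 and -22 (first base, with -1 the last base before the start). In Phgdh it lay at -193 and -23. The first of the 2 Psat1 promoters held it at -36 and -6, and at 23 after the start, while the second Psat1 promoter held none. Mthfd1 had a single match at -69. Thus the match was shared by promoters of genes whose transcripts differed by very different amounts, as the values below show.

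After the quality limits and removal of likely doublets, 8146 WT cells with 42882105 UMIs (unique molecular identifiers, 1 per captured transcript) and 8476 cKO cells with 88306469 UMIs were kept. The median cell had 4266 UMIs in the WT and 10157 UMIs in the cKO library. The libraries share 24 cell barcodes. Trmt6 itself, in CPM (counts of UMIs per 1000000), stood at 64.2 in WT against 50.4 in cKO (log2 ratio -0.35, -0.42 to -0.28). Which part of Trmt6 is floxed is not given in the sources used here, and UMIs counted at the 3′ end may lie outside it, so this value does not check the deletion and cKO is used as the label gives it. The study itself checked the deletion by a Western blot of TRMT6 in LSK cells. It also reports less m1A on tRNA of the knockout stem and progenitor cells. The sorting antigens were detected in both libraries, with Kit at 63.0 and 21.4 CPM and Ly6a, which encodes Sca-1, at 33.9 and 141 CPM in WT and cKO.

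Over all kept cells the intervals of all 9 members lay above 0 in the direction of cKO, with larger ratios for serine synthesis and 3 of the 4 mitochondrial folate enzymes than for Mthfd1l and the cytosolic enzymes. Of the 9142 genes that reached 5 CPM in a library, 43.3% had a ratio above 0 (52.7% under TMM scaling), whatever their interval. With each cell thinned at random to 2000 UMIs, the interval of Mthfd1 spanned 0 (0.11, -0.06 to 0.28). Summed, the serine synthesis transcripts went from 322 CPM (316 to 327) in WT to 742 CPM (736 to 748) in cKO (log2 ratio 1.21, 1.18 to 1.23). The mitochondrial folate transcripts went from 115 CPM (112 to 118) to 448 CPM (443 to 452), with a log2 ratio of 1.96 (1.92 to 2.0). The 2 cytosolic transcripts together stood at 76.8 CPM (74.2 to 79.5) and 97.4 CPM (95.3 to 99.4), with a log2 ratio of 0.34 (0.28 to 0.40). The 3 intervals of these ratios did not overlap.

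A difference of over 2-fold, among genes that reached 5 CPM in either library, was found for 5 of the 9 members in the direction of cKO (Psat1, Psph, Shmt2, Mthfd2 and Aldh1l2) and for 0 in the other direction. Aldh1l2 reached the 5 CPM through the cKO library alone, so that its place in this count was set by the difference itself, and without it, or with a minimum of 10 CPM, the count was 4. Across the 9142 genes that reached this level, 2.98% were over 2-fold higher and 5.27% over 2-fold lower in the cKO library. The median log2 ratio was 1.44 over the 9 members, with Aldh1l2 among them, and -0.06 over all those genes. The member just inside the limit was Phgdh at 1.99-fold, and the member just past it was Shmt2 at 2.72-fold. Under TMM or median-of-ratios scaling, which move the median of all genes to 0.03, Phgdh passed the limit too (log2 ratio 1.09).

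**Figure D1:**
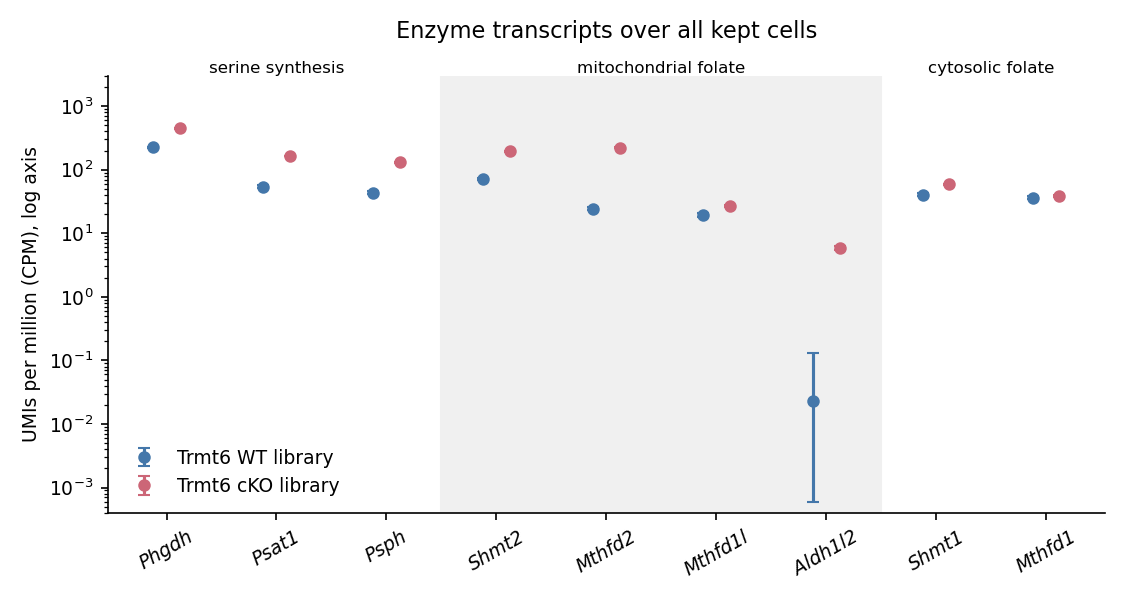
Level of each enzyme transcript in CPM (log axis) over all kept cells of the Trmt6 WT (blue) and Trmt6 cKO (red) library, with 95% Poisson intervals of counting error. Mthfd2 stands at 24.4 and 222 CPM, Aldh1l2 is at 1 UMI in WT, and the 2 points of Mthfd1 lie almost side by side.

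Phgdh (chr3:98313170-98339990, minus strand, GRCm38, GENCODE M21, as for all members), whose product opens the serine route, was counted at 224 CPM (219 to 228) in WT and 446 CPM (442 to 451) in cKO. Its log2 ratio was 1.0 (0.96 to 1.03). Of all 9142 genes, 97.0% had a lower ratio. A processed copy, Phgdh-ps1, is annotated but is not a row of the matrices, so reads of the copy and of Phgdh could not be separated.

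Psat1 (chr19:15904678-15947337, minus strand), the transaminase that gives phosphoserine, stood at 54.2 CPM (52.0 to 56.4) in WT and 164 CPM (161 to 167) in cKO (log2 ratio 1.60, 1.53 to 1.66). Psph (chr5:129765558-129787449, minus strand), the phosphatase that yields free serine, stood at 43.7 CPM (41.8 to 45.7) and 132 CPM (130 to 134), with a log2 ratio of 1.59 (1.52 to 1.66). Both were 3.02-fold higher in cKO, and they took ranks 122 and 123 among the 9142 genes.

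Shmt2 (chr10:127517123-127522444, minus strand), which brings the carbon of serine into mitochondrial folate, was at 71.1 CPM (68.6 to 73.7) in WT and 193 CPM (191 to 196) in cKO (log2 ratio 1.44, 1.39 to 1.5). Mthfd2 (chr6:83305691-83325908, minus strand), the dehydrogenase and cyclohydrolase of the next step, was at 24.4 CPM (22.9 to 25.9) and 222 CPM (219 to 225). This is a 9.10-fold difference (log2 ratio 3.19, 3.10 to 3.28), rank 36 of the 9142 genes. Together these 2 genes made up most of the difference of the mitochondrial sum.

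Mthfd1l (chr10:3973118-4167081, plus strand), which releases formate, differed far less, from 19.6 CPM (18.3 to 21) in WT to 26.6 CPM (25.5 to 27.7) in cKO (log2 ratio 0.44, 0.32 to 0.55). The mitochondrial enzymes therefore did not differ by a common factor. Aldh1l2 (chr10:83487450-83534140, minus strand), the mitochondrial formyltetrahydrofolate dehydrogenase, had 1 UMI in WT (0.0233 CPM, 0.00059 to 0.130) and 518 UMIs in cKO (5.87 CPM, 5.37 to 6.39). Its log2 ratio of 7.39 ranked 6 of the 9142 genes, with an interval from 5.49 to 13.28, and with a prior of 5 counts it was 5.40. Even so, it remained near 6 CPM, so that its share of the mitochondrial sum was small.

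Of the cytosolic enzymes, Shmt1 (chr11:60788104-60811718, minus strand) was at 40.5 CPM (38.6 to 42.4) in WT and 58.5 CPM (56.9 to 60.1) in cKO (log2 ratio 0.53, 0.45 to 0.61). Mthfd1 (chr12:76255298-76319803, plus strand), the cytosolic trifunctional enzyme, was at 36.4 CPM (34.6 to 38.2) and 38.8 CPM (37.5 to 40.2), with a log2 ratio of 0.09 (0.01 to 0.18). The Mthfd1 difference is of the size by which scaling moves the median of all genes, and it read 0.19 under TMM scaling.

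The 3′ ends of 3 members lie within 2000 bases of a gene on the other strand, and whether the counting used strand is not given in the sources used here. The partner of Aldh1l2, D10Wsu102e, had 17.3 CPM in WT against 18.1 CPM in cKO. The partner of Shmt1, Smcr8, was at 2.5 and 2.0 CPM. The partner of Shmt2, Ndufa4l2, had 0 WT and 2 cKO UMIs. The part of such reads in the values of the members was not tested.

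The balance between the paired compartments was also read within each library, as a share of UMIs that no scaling can change. Shmt2 gave 63.7% (62.4 to 65.1) of the Shmt1 and Shmt2 UMIs in WT and 76.8% (76.2 to 77.3) in cKO. Mthfd1l and Mthfd2, which in mitochondria cover steps that Mthfd1 combines in the cytosol, gave 54.7% (53.1 to 56.4) of the UMIs of the 3 genes in WT and 86.5% (86.1 to 86.9) in cKO. With Mthfd2l, a mitochondrial relative of Mthfd2 that is not a member and was lower in cKO, added to the mitochondrial side after the values were seen, the shares were 69.0% (67.7 to 70.3) and 87.5% (87.1 to 87.9), so that the gap is smaller. All these shares were further on the mitochondrial side in the cKO library. These are shares of transcripts counted at their 3′ ends, not of enzyme.

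Cells were next assigned to lineages by marker genes, since the libraries differed in their make-up. A cell thinned to 2000 UMIs entered a gate with at least 2 distinct markers and a minimum number of marker UMIs, and 4 gates held at least 50 cells in both libraries. The HSC gate (markers such as Procr, Hlf and Mecom) held 384 WT and 444 cKO cells, the early lymphoid gate (Dntt, Flt3, Satb1) 952 and 115, the myeloid protease gate of granulocyte-monocyte progenitor (GMP) genes (Elane, Mpo, Ctsg) 1288 and 81, and the megakaryocyte gate (Pf4, Gp1bb, Itga2b) 286 and 59. Among the 10 leading genes of each of these gates, in each library, 3 to 7 were markers of the gate and at most 1 was a marker of another. Of the 10 leading genes of the early lymphoid gate, only Dntt and Satb1 were shared by the libraries. In WT it was led by the chemokine genes Ccl3 and Ccl4 as well, and in cKO by Ly6d and by Ebf1, a transcription factor of the B lineage, so that its ratios may compare cells of different make-up. A further 4665 WT cells (58.6%) and 7358 cKO cells (87.8%) were in no gate, and these markers do not say what they are. Another 215 and 99 cells met more than 1 gate and were left out.

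The HSC gate showed the lowest summed level of the 9 transcripts of the 4 gates in both libraries, at 346 CPM (314 to 381) in WT and 855 CPM (823 to 887) in cKO. Its WT interval overlapped that of the megakaryocyte gate (359 to 426). In the early lymphoid gate the sum was 457 CPM in WT and 1148 CPM in cKO. The megakaryocyte gate had 391 and 1303 CPM. The myeloid protease gate was highest in both libraries, at 659 CPM (645 to 674) in WT and 1496 CPM (1431 to 1564) in cKO. In none of the 4 gates did the intervals of the 2 libraries meet, and every cKO sum was above every WT sum.

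Mthfd2 had the largest ratio of the 8 members with enough counts in each of the 4 gates. In the HSC gate it went from 14 UMIs (11.4 CPM, 6.21 to 19.1) in WT to 426 UMIs (132 CPM, 120 to 145) in cKO (log2 ratio 3.49, 2.77 to 4.42). It stood at 16.8 and 151 CPM in the early lymphoid gate (log2 ratio 3.16), at 24.1 and 235 CPM in the megakaryocyte gate (3.27) and at 35.8 and 227 CPM in the myeloid protease gate (2.67, 2.45 to 2.88). The highest WT gate and the lowest cKO gate, 35.8 and 132 CPM, were far apart.

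For Phgdh, Psat1, Psph and Shmt2 as well, the 4 WT and the 4 cKO levels did not overlap. With Mthfd2, this makes 5 of 8 members whose cKO levels were all above the WT levels, against 3.56% of the 10390 genes that reached 5 CPM in a gate, and 0 members whose cKO levels were all below (4.39%). Psat1 ranged from 31.6 to 69.7 CPM over the WT gates and from 95.5 to 229 CPM over the cKO gates, with log2 ratios from 1.51 in the myeloid protease to 2.22 in the megakaryocyte gate. Shmt2 ranged from 34.1 to 98.3 CPM and from 102 to 243 CPM, and its log2 ratios from 1.30 to 1.76. Phgdh ranged from 132 to 282 CPM and from 324 to 510 CPM, with log2 ratios from 0.86 (0.73 to 0.97) in the myeloid protease gate to 1.53 (1.24 to 1.81) in the megakaryocyte gate.

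Psph was nearly level over the WT gates, between 35.0 and 46.0 CPM, and lay between 87.0 and 138 CPM in cKO. Its log2 ratio was 0.99 in the early lymphoid, 1.0 in the HSC, 1.62 in the myeloid protease and 1.96 in the megakaryocyte gate. The intervals of the early lymphoid (0.59 to 1.37) and the megakaryocyte gate (1.44 to 2.5) did not meet. The serine synthesis sum followed, with the highest log2 ratio in the megakaryocyte gate (1.79, 1.58 to 2.0) and values from 1.08 to 1.13 in the other 3. This order depended on how the gates were set, since with gates set at 1000 UMIs the HSC gate had 1.5 (1.30 to 1.70), which meets the megakaryocyte interval, and Phgdh in it went from 0.95 to 1.48.

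**Figure D2:**
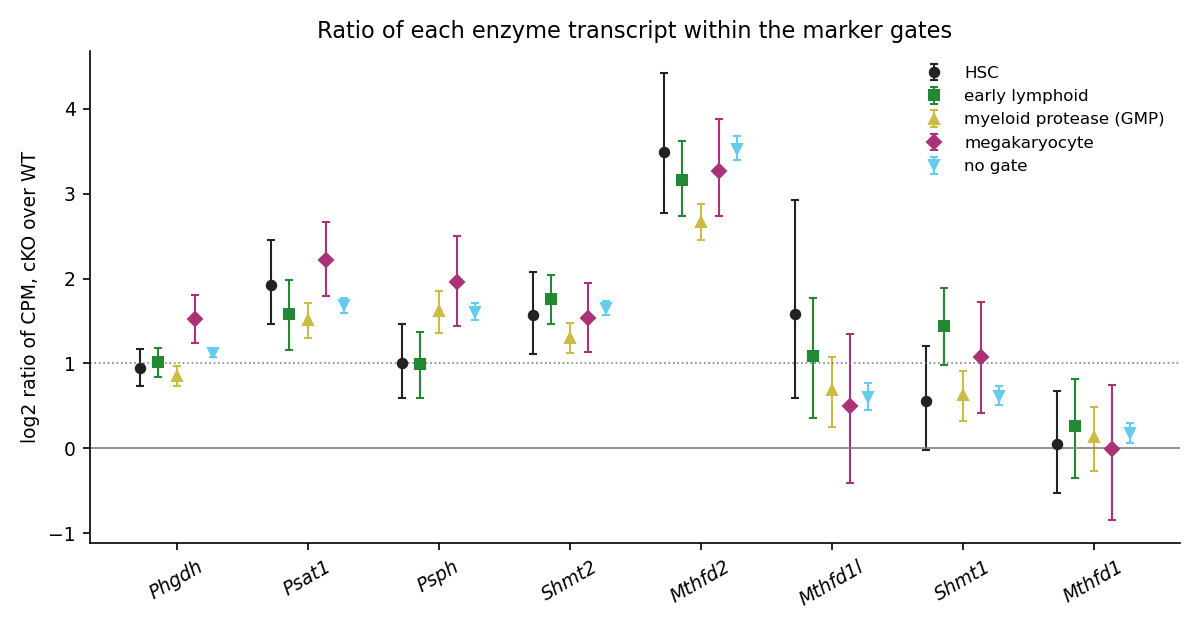
log2 ratio of CPM (cKO over WT) of 8 enzyme transcripts within each marker gate and in cells of no gate, with 95% intervals of counting error; the dotted line marks a 2-fold difference. Mthfd2 lies between 2.67 and 3.53 in the 5 sets of cells, and the intervals of Mthfd1 span 0 in the 4 gates.

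Of the cytosolic enzymes, Shmt1 had its largest ratio in the early lymphoid gate. It was at 27.9 CPM (22.9 to 33.7) in WT and 75.5 CPM (58.6 to 95.7) in cKO there (log2 ratio 1.44, 0.98 to 1.89). In the HSC gate its log2 ratio was 0.56 with an interval from -0.02 to 1.20, on 30 WT and 117 cKO UMIs. Mthfd1 had log2 ratios from -0.01 to 0.27, and all 4 intervals spanned 0, so that no difference was detectable at this depth with these gates. In the early lymphoid gate the Mthfd1 ratio depended on how the gate was set, at 0.27 (-0.35 to 0.82) as reported, 0.93 (0.35 to 1.46) with gates set on cells thinned to 1000 UMIs and 0.52 (0.03 to 0.98) with cells of more than 1 gate kept. With gates set at 1000 UMIs the interval of Shmt1 in the HSC gate was above 0 (0.80, 0.19 to 1.52), as it was under median-of-ratios scaling within the gate (0.70, 0.13 to 1.35). Mthfd1l, on 8 to 341 UMIs per gate and library, had log2 ratios from 0.50 (megakaryocyte, -0.41 to 1.35) to 1.58 (HSC, 0.59 to 2.92). With gates set at 1000 UMIs it fell below 2-fold in the HSC gate (0.88, -0.01 to 2.01) and in the early lymphoid gate (0.34, -0.54 to 1.11, against 1.09).

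Aldh1l2 could hardly be followed within the gates. In the HSC gate it had 0 WT and 7 cKO UMIs, in the early lymphoid gate 0 and 1, in the myeloid protease gate 1 and 2 and in the megakaryocyte gate 0 and 3. In cells of no gate it had 0 WT and 501 cKO UMIs, with a lower end of the counting interval at a log2 ratio of 5.20. Most of the cKO UMIs of Aldh1l2 thus came from cells that no marker list caught, which were also most of the cKO cells.

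Counts past 2-fold were read against the background of each gate, and Aldh1l2 was under 5 CPM in all 4 gates. In the HSC gate 5 of 8 members were over 2-fold higher (3.36% of all genes at that level) and 0 were lower (9.29%). In the early lymphoid gate it was 6 of 8 against 5.33% of all genes, with 0 lower (8.82%). With gates set at 1000 UMIs these counts were 5 and 5 of 8, without Mthfd1l in either. The share of all genes past 2-fold was not computed for that setting. The myeloid protease gate had 4 of 8 against 3.91%, with 0 lower (5.46%), and the megakaryocyte gate 6 of 8 against 6.38%, with 0 lower (10.7%). In cells of no gate 6 of 9 members were over 2-fold higher (2.66% of all genes) and 0 lower (5.83%). The 6 include Aldh1l2, which had 0 WT UMIs and 6.28 CPM in cKO, so that it reached 5 CPM through the cKO library alone. Its place in this count, and in the median for these cells, was set by the difference itself. The median log2 ratio of the members was 1.29, 1.27, 1.08, 1.53 and 1.61 in this order of cells, while that of all genes was -0.12, -0.02, 0.01, -0.06 and -0.10. The gates share the same 2 libraries and are not independent of one another.

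The mitochondrial share of the Mthfd transcripts was also higher in cKO within the gates. For Mthfd1l and Mthfd2 against Mthfd1 it went in the HSC gate from 39.3% (26.5 to 53.2) of 56 UMIs in WT to 84.1% (80.9 to 87.0) of 585 UMIs in cKO. The 4 gates lay between 39.3% and 58.3% in WT and between 83.2% and 89.2% in cKO. With Mthfd2l the gap was much smaller in the HSC gate, at 76.1% (68.2 to 82.8) in WT and 86.5% (83.8 to 89.0) in cKO, and the 4 gates lay between 64.6% and 77.3% in WT and between 85.3% and 90.0% in cKO. For Shmt2 against Shmt1 the WT and cKO intervals were apart in the myeloid protease gate (64.5%, 62.3 to 66.7, and 74.4%, 70.0 to 78.5), but met in the HSC, early lymphoid and megakaryocyte gates.

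Since several folate enzymes are known to follow cell division, cells were also grouped by the summed UMIs of 95 S and G2/M genes in the thinned cell, with limits that split the pooled cells into 3 like parts (up to 9, 10 to 21, and 22 or more). The low, middle and high bins held 2948, 2170 and 2839 WT cells and 2714, 3285 and 2377 cKO cells. The high bin held 35.7% of WT and 28.4% of cKO cells. The difference between the libraries was present for Phgdh, Psat1, Psph, Shmt2 and Mthfd2 in all 3 bins.

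In WT cells, Mthfd2 was at 6.68 CPM (5.17 to 8.5) in the low, 26.0 CPM (23.2 to 29.1) in the middle and 32.0 CPM (29.6 to 34.5) in the high bin. In cKO cells it was at 163 CPM (158 to 169), 231 CPM (226 to 236) and 255 CPM (249 to 261). The lowest cKO bin was above the highest WT bin by a wide margin. The log2 ratio of cKO over WT was 4.60 (4.26 to 4.99) in the low, 3.15 (2.99 to 3.32) in the middle and 2.99 (2.88 to 3.11) in the high bin. From the low to the high bin Mthfd2 climbed by a log2 ratio of 2.25 (1.89 to 2.65) in WT and 0.64 (0.59 to 0.70) in cKO.

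Psat1 had the same order, at 24.4, 55.7 and 67.8 CPM over the WT bins and 125, 171 and 185 CPM over the cKO bins. Its log2 ratio of cKO over WT was 2.35 (2.16 to 2.55), 1.62 (1.51 to 1.74) and 1.45 (1.37 to 1.54). Psph, in contrast, was nearly flat over the WT bins (40.6, 46.4 and 44.1 CPM), and its log2 ratio was 1.48, 1.61 and 1.60. Shmt2 climbed by similar log2 ratios from the low to the high bin in both libraries, 0.63 (0.49 to 0.78) in WT and 0.72 (0.66 to 0.79) in cKO.

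Tyms, the thymidylate synthase that consumes methylene-tetrahydrofolate in S phase, served as a reference for the bins. It was at 35.5, 164 and 207 CPM in WT and 52.4, 175 and 207 CPM in cKO. Its log2 ratio was 0.56 (0.39 to 0.74) in the low, 0.10 (0.02 to 0.17) in the middle and 0.00 (-0.05 to 0.06) in the high bin. The low bins of the 2 libraries thus differed in this reference too. Mthfd1 had log2 ratios of 0.35 (0.15 to 0.56), -0.09 (-0.23 to 0.05) and 0.05 (-0.09 to 0.19) over the bins. Shmt1 had its highest level in the middle bin of both libraries, 55.3 CPM in WT and 72.8 CPM in cKO.

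**Figure D3:**
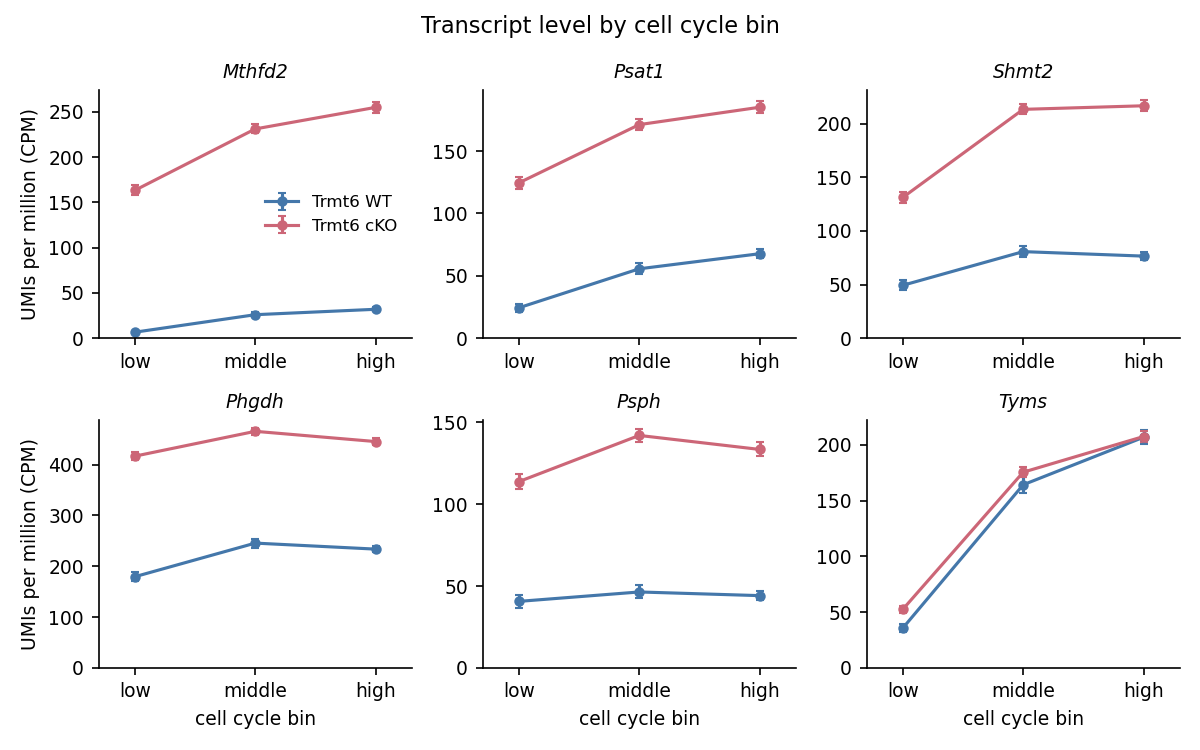
Level in CPM of 5 enzyme transcripts and of Tyms in cells with a low, middle or high sum of S and G2/M gene UMIs, in the Trmt6 WT (blue) and Trmt6 cKO (red) library, with 95% Poisson intervals of counting error. The cKO line lies above the WT line in every bin for the 5 enzymes, while the lines of Tyms meet at 207 CPM in the high bin.

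The difference was then followed cell by cell at equal depth, in 7957 WT and 8376 cKO cells thinned to 2000 UMIs (189 and 100 shallower cells were left out). A UMI of Mthfd2 was found in 3.41% (3.02 to 3.83) of WT and 30.2% (29.2 to 31.2) of cKO cells. For Phgdh the shares were 31.7% and 55.4%, for Psat1 7.83% and 25.1%, for Psph 8.27% and 21.3% and for Shmt2 11.9% and 27.6%. Mthfd1 was found in 6.64% (6.10 to 7.20) and 7.12% (6.57 to 7.69), shares whose intervals overlap. Without thinning the Mthfd2 shares were 10.4% and 71.7%, which include the depth gap.

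Aldh1l2 was found in 0 of the 7957 thinned WT cells (3 counts would be a share of 0.0377%) and in 1.06% (0.85 to 1.31) of the cKO cells. In comparison, 42 WT cells of the neutrophil gate (median 6192.5 UMIs before thinning) held a UMI of Phgdh in 1 cell (2.38%, 0.06 to 12.6), of Shmt2 in 1 and of Mthfd2 in 5 (11.9%, 3.98 to 25.6) after thinning. Of the shares of all thinned WT cells, that of Phgdh lay above the interval of these 42 cells and that of Mthfd2 below it. Those of the other 7 genes lay within it, so that the thinned shares cannot be told apart. On all UMIs the gate was lower than all WT cells, with intervals apart, for Psat1 (6.41 and 54.2 CPM), Psph (3.20 and 43.7) and Shmt2 (16.0 and 71.1). The same held for Mthfd1l (3.20 and 19.6 CPM), Shmt1 (3.20 and 40.5) and Mthfd1 (0 and 36.4), but not for Aldh1l2. Each of these gate levels rests on at most 5 UMIs. The gate gives no background for Mthfd2, of which it held 35.2 CPM against 24.4 CPM over all WT cells. The cKO library had 0 cells in that gate, so that free RNA in its droplets could not be read in the same way, and its part in the shares was not tested.

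Summed over the 9 genes, a thinned cell held 0.903 UMIs on average in WT and 2.34 in cKO, with medians of 1 and 2. No member was detected in 43.1% of WT and 13.8% of cKO cells. At the other end, 5 or more UMIs were held by 0.478% of WT and 11.9% of cKO cells, and the fullest cell had 7 UMIs in WT and 11 in cKO. The 75th percentile was 1 UMI in WT and 3 UMIs in cKO. The whole distribution was thus displaced, rather than a small set of cells alone.

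**Figure D4:**
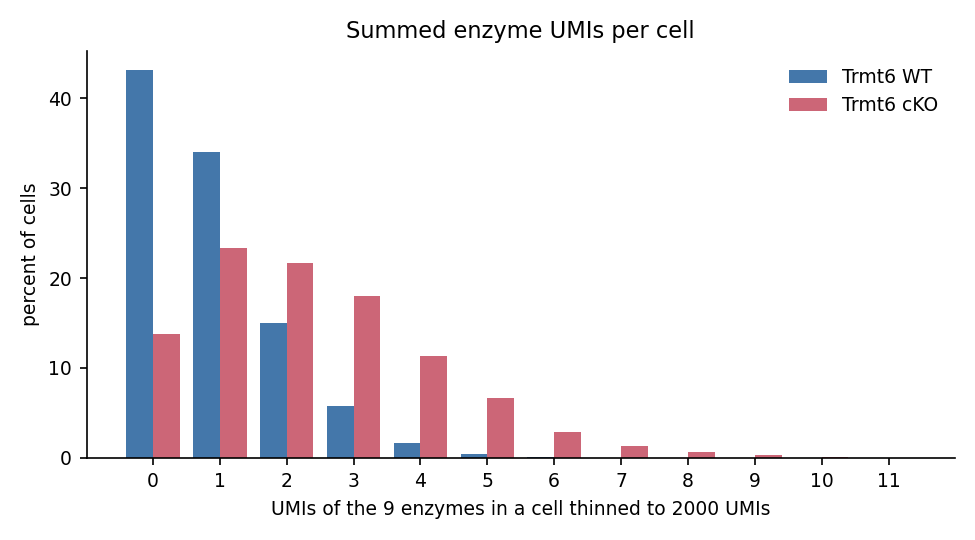
Percent of cells (thinned to 2000 UMIs) by the number of UMIs they hold of the 9 enzyme transcripts together, for Trmt6 WT (blue, 7957 cells) and Trmt6 cKO (red, 8376 cells). At 0 UMIs the WT bar is at 43.1% and the cKO bar at 13.8%.

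Within the cKO library, thinned cells with a Mthfd2 UMI held several of the other enzymes somewhat more often. Shmt2 was found in 32.4% (30.5 to 34.2) of the 2531 cells with and in 25.5% (24.4 to 26.7) of the 5845 cells without a Mthfd2 UMI. Phgdh was found in 59.0% and 53.8%, and Psat1 in 28.6% and 23.6%. For Mthfd1 the intervals overlapped, at 6.80% (5.85 to 7.85) and 7.25% (6.60 to 7.95). In WT, with 271 Mthfd2 cells, the intervals overlapped for every other member. With under 1 UMI of each gene per thinned cell on average, these gaps are weak and describe the library only.

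Finally, 53 further genes of one-carbon metabolism and its regulation were read, from a list by function. Of these, 36 had at least 5 CPM in a library, 5 were over 2-fold higher in cKO and 0 over 2-fold lower (background 2.98% and 5.27%, as above), and their median log2 ratio was 0.03. Of the 5, 3 (Cth, Atf5 and Trib3) reached 5 CPM through the cKO library alone, so that this count gives no support by itself. Of the 5, 4 were among the 6 regulators of the list. Without the regulators, 1 of 30 genes was over 2-fold higher, and the median was 0.01. Under TMM or median-of-ratios scaling 6 genes of the list were over 2-fold higher, and with a minimum of 10 CPM 4.

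The gene outside the regulators was Cth, which encodes the cystathionine lyase that makes cysteine. It had 8 UMIs (0.187 CPM) in WT and 836 UMIs (9.47 CPM) in cKO (log2 ratio 5.58, 4.68 to 6.88). The 4 regulators were Atf4, the transcription factor known to activate the serine and mitochondrial folate genes (67.3 and 217 CPM, log2 ratio 1.69), Atf5 (3.17 and 87.8 CPM, 4.79), Ddit3, which encodes CHOP (22.5 and 98.4 CPM, 2.13), and the pseudokinase gene Trib3 (2.17 and 161 CPM, 6.21). The other 2, Myc and Nfe2l2, had log2 ratios of -0.31 and -0.09.

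The enzymes that take up the one-carbon units differed by less than 2-fold. Tyms was at 154 and 155 CPM (log2 ratio 0.01, -0.03 to 0.05). Of the purine enzymes, Gart was at 72.4 and 83.3 CPM (0.20) and Atic at 94.3 and 132 CPM (0.49, 0.44 to 0.54). In the methionine cycle Mtr, the methionine synthase, was at 9.12 and 6.76 CPM (-0.43, -0.62 to -0.24) and Mat2a at 88.9 and 83.9 CPM (-0.08).

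Of the carriers, Slc25a32, the mitochondrial folate carrier, was at 6.76 and 8.73 CPM (log2 ratio 0.37, 0.17 to 0.57) and Sfxn1, the mitochondrial serine carrier, at 119 CPM in both libraries (-0.01, -0.05 to 0.04). The highest of the tested carriers, Slc19a1, the folate carrier of the plasma membrane, was at 25.4 and 47.9 CPM (0.92, 0.82 to 1.01) and is named after its value was seen. It stayed under 2-fold here, but passed it under TMM and median-of-ratios scaling (1.01 in both). Outside Cth and the regulators, the tested genes of the list lay between -0.66 (Mthfd2l) and 0.92. Ratios as near 0 as those of Tyms, Mat2a, Sfxn1 and Nfe2l2 have no fixed sign, since the choice of scaling moves them by as much.

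**Figure D5:**
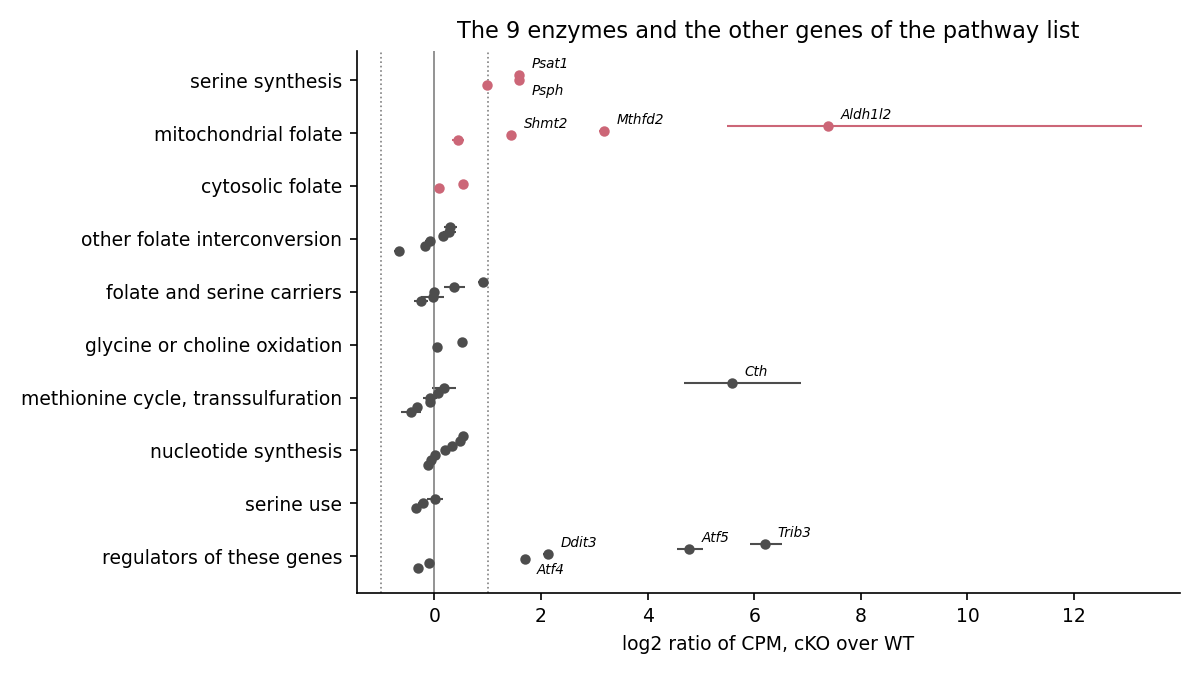
log2 ratio of CPM (cKO over WT, all kept cells) of the 9 enzymes (red) and of the 36 other genes of the list with at least 5 CPM in a library (grey), by function, with 95% intervals of counting error; dotted lines mark 2-fold and genes past it are named. Outside the 9 enzymes the 5 genes past 2-fold are Cth and the regulators Atf4, Atf5, Ddit3 and Trib3.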

How the data were processed

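Single-cell RNA was measured in 2 libraries, 1 for each genotype that the labels give. The values deposited by the authors are raw UMI counts by gene and barcode; per the labels, Cell Ranger 6.0.0 and mm10 were used. The labels name version 2 of the 3′ kit, and the methods name a later one. Cells were kept by the limits of the study: over 200 genes, fewer than 4000 (WT) or 4500 (cKO) genes, under 10% (WT) or 5% (cKO) mitochondrial UMIs, and under 5% hemoglobin UMIs. Likely doublets (617 WT and 675 cKO cells) were removed by comparison with simulated pairs of cells (50 neighbours, 20 components, 1500 variable genes, 0.8% per 1000 barcodes). The files held 8869 WT and 9260 cKO barcodes, while 4000 cells per sample were targeted.

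Levels are CPM of UMIs summed over cells, with exact Poisson intervals. Ratios (cKO over WT) had 0.5 counts added and conditional binomial intervals, and shares have Clopper-Pearson intervals (scipy 1.17.1). The ratio and its interval were tested on simulated data. UMIs are counted once per transcript, so that no length enters. A floor is 3 counts. With 1 library per genotype no test across samples was possible. The members, pathway list, markers and alternatives were chosen with earlier results of these data known, and 3 of the 5 motifs (all but TGATGNAA and the E-box) were added after the data were seen. Minimum marker UMIs of a gate (3 to 20) were set from the markers alone, and 2 marker symbols were not found. The genes named are the 9 members, each gene of the list past 2-fold, 8 genes of the list whatever their value (1 of them is not reported here), the regulators, the 5 genes most like the members, and Trmt6, with Kit, Ly6a and neighbours on the other strand as checks. Outside this rule, Slc19a1, Mthfd2l, Sardh, Cbs, Folr1 and Gldc, and the leading genes of gates, were named after their values were seen. TMM factors came from edgeR 4.0.16.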

Additional observations from a re-analysis of the deposited data

How the results depend on the processing

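No paired analysis was possible because each genotype has 1 library, and for the same reason no replicate could be left out. Among the ratios of members and of their groups that were recomputed, none with a counting interval away from 0 was reversed. In all, 189 of the values compared stayed within the counting interval of the reported value (or 1.5 times a reported count) and 46 moved beyond it, 6 of them shares of Mthfd UMIs once Mthfd2l is added. TMM scaling gave log2 ratios of 1.09 for Phgdh, 1.69 for Psat1, 1.69 for Psph, 1.54 for Shmt2, 3.28 for Mthfd2, 0.63 for Shmt1 and 0.19 for Mthfd1. Median-of-ratios scaling gave 1.09, 1.69, 1.69, 1.54, 3.28, 0.63 and 0.19 in this order, and a total that leaves out mitochondrial and ribosomal protein genes gave 1.09, 1.69, 1.69, 1.54, 3.28, 0.63 and 0.19. These scalings shift all genes alike, and TMM and median-of-ratios scaling take Phgdh and, of the other pathway genes, Slc19a1 past 2-fold. Thinning cells to 2000 UMIs gave 1.06 for Phgdh, 1.83 for Psat1, 1.51 for Psph and 3.44 for Mthfd2, and could give no value for Aldh1l2 (0 WT UMIs). Scaling each cell first gave 1.08 for Phgdh, 1.70 for Psat1, 1.51 for Shmt2, 3.42 for Mthfd2, 0.57 for Mthfd1l, 0.64 for Shmt1 and 0.18 for Mthfd1. A prior of 5 counts gave 5.40 for Aldh1l2, which rests on 1 WT UMI. Of the other pathway genes, with a minimum of 1 UMI 7 were over 2-fold higher against 5 reported (Sardh and Cbs, with 5 and 2 WT UMIs, were added) and 2 were lower (Folr1 and Gldc, with 4 and 2 WT UMIs), and 1 was lower at a fold of 1.5 (Mthfd2l), against 0 reported. Gates set at 1000 UMIs gave 1.48 for Phgdh in the HSC gate, 0.34 for Mthfd1l and 0.93 for Mthfd1 in the early lymphoid gate, 1.5 for serine synthesis in the HSC gate and 1.80 for the mitochondrial folate sum in the myeloid protease gate, and left under 50 cKO cells in the megakaryocyte gate. Doubling the minimum of marker UMIs left under 50 cells in the cKO library in all 4 gates, and in WT in the HSC gate, and gave no value. The cause of these moves was not tested. Depth limits Aldh1l2, Mthfd1l and Mthfd1 within gates.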

Other observations

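Of the smaller gates, the erythroid gate held 42 WT cells with 141 UMIs of the 9 enzymes (Mthfd2 5) and 107 cKO cells with 1197 UMIs (Mthfd2 196). The B cell gate held 4 WT cells with 12 such UMIs and 40 cKO cells with 513. The monocyte or dendritic gate held 50 WT and 34 cKO cells, with 174 and 107 UMIs. The T or NK cell gate held 24 and 19 cells with 46 and 65 UMIs, and the mast or basophil gate 5 and 20 cells with 22 and 80 UMIs. These gates had under 50 cells in a library, and no ratio is given for them. The 42 WT cells of the neutrophil gate held 11 UMIs of Mthfd2 but 4 of Phgdh, 2 of Psat1 and 1 of Psph.

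The genes whose levels were most like the sum of the serine synthesis and mitochondrial folate members were sought over 12 sets of cells (gates and cells of no gate with at least 50 cells in a library). Among the 6858 genes that reached 20 CPM in a set, the highest Pearson r of log2(CPM + 10) were those of Rplp0 (0.989), Yars (0.980), Rps20 (0.979), Gnb2l1 (0.975) and Wdr77 (0.974). The sets share 2 libraries, so that any gene that differs between the libraries tends to score high, and reads of the ribosomal genes can be shared with their pseudogenes. The sum itself ran from 295 to 559 CPM over the WT sets and from 790 to 1363 CPM over the cKO sets. Over all kept cells Yars, the cytosolic tyrosyl-tRNA synthetase, was at 25.2 and 92.3 CPM (log2 ratio 1.87), and Rplp0 at 4030 and 5806 CPM (0.53).

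Mthfd2l, a mitochondrial relative of Mthfd2 that was read as part of the pathway list, went the other way. It was at 37.0 CPM (35.2 to 38.9) in WT and 23.4 CPM (22.4 to 24.4) in cKO (log2 ratio -0.66, -0.76 to -0.57). It was singled out after its value was seen, and it is the gene that passes a fold of 1.5 in the direction of WT.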
